A study of Mus musculus with 4 samples.

Results

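Lymphatic endothelial cells (LECs) were sought among the RFP-positive cells sorted from the left ventricle of the mouse heart. A cell was taken as lymphatic when it held at least 3 unique molecular identifiers (UMIs, each standing for 1 captured transcript) of Prox1, Mmrn1, Ccl21a, Reln and Lyve1 together, with at least 1 from Prox1, Mmrn1 or Ccl21a, no UMI of the macrophage genes C1qa, C1qb and Csf1r, and no UMI of the endocardial gene Npr3. By this rule 114 of 39829 cells that passed the quality filter were LECs. They were 16 cells in NC library 1, 18 in NC library 2, 15 in HFpEF library 1 and 65 in HFpEF library 2.

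The cells came from mice that carried Cdh5-CreER, floxed Scarb1 (which encodes the lipoprotein receptor SR-B1, in a line made on C57BL/6N) and a tdTomato reporter behind a stop cassette at Rosa26, so that tamoxifen switched on the red label in cells with Cdh5 promoter activity. NC mice were fed chow in which fat supplied 10% of the energy, and HFpEF mice were fed 60% fat and drank 0.5 mg/ml L-NAME, an inhibitor of nitric oxide synthases, both for 20 weeks. There were 2 libraries per diet, made with the 10x Chromium 3′ assay, and the labels give neither the Scarb1 genotype (S fl/fl or S fl/+) of a library nor the number of mice behind it. All groups therefore share the Cre, the reporter and the tamoxifen, and genotype cannot be told apart from library.

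Lymphatic vessels of the heart drain fluid, lipid and leukocytes from the muscle towards the lymph nodes. Their endothelium arises largely from veins, and the transcription factor PROX1 sets and keeps its identity, while VEGF-C acting on the receptor VEGFR-3 (Flt4) makes it grow. Initial lymphatics release the chemokine CCL21, which guides dendritic cells into the vessel, and carry the hyaluronan receptor LYVE1, whereas collecting vessels are known for valves that depend on FOXC2.

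Ccl21a supplied most of the UMIs that chose the cells, and the mouse genome carries near-identical copies of this gene, so the sequences of 2 copies are shown. Of 9838 UMIs on the 7 Ccl21 entries of the annotation in LECs, 9832 (99.9%) were counted on 1 Ccl21a entry (ENSMUSG00000094686, GRCm38 chr4:42772860-42773993, minus strand) and 4 on Ccl21d (ENSMUSG00000094065, chr4:41903610-41904743, plus strand). The 870-base transcripts of these entries have 864 identical bases (99.3%), with the substitutions G24A, T159A, C269T, C640T, T812C and G856A from Ccl21a to Ccl21d, counted from the transcript's 5′ end. The last 3 of these lie 230, 58 and 14 bases before the 3′ end, where the assay reads. The 120 bases just before the RefSeq start of Ccl21a (RefSeq, GRCm38.p6) were set against a Ccl21d window at its RefSeq start. The Ccl21d window was moved to the position with the fewest differences. The 2 windows differed at 1 base, T12C counted from the 5′ end of the window, which is in capitals. Both windows overlap the 5′ end of the gene spans given above.
Ccl21a, chr4:42773992-42774111, minus strand: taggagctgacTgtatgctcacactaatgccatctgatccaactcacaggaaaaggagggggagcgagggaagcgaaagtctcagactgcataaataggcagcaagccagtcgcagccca
Ccl21d, chr4:41903492-41903611, plus strand: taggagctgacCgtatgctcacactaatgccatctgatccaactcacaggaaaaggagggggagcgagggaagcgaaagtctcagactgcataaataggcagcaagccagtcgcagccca
Since reads from the copies can be split by the counting in ways that the deposited values do not show, Ccl21a below stands for the family as counted.

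The 5 genes read by the rule are given as a description, without a test. Ccl21a held 3172, 1901, 1570 and 3189 UMIs in the LECs of NC library 1, NC library 2, HFpEF library 1 and HFpEF library 2, in that order, which is the order used throughout. As counts per 1000000 UMIs of the same cells (CPM) these are 26614, 14805, 27877 and 14454. All other endothelial cells (ECs, at least 2 UMIs of Cdh5 and Pecam1 together) held 13, 7, 3 and 493 Ccl21a UMIs, over 31172 cells. In HFpEF library 2, 431 of the 493 sat in 3 cells that met the marker part of the rule and failed it on Npr3. Ccl21a was found in 95 of the 114 LECs and made up 1.87% of all their UMIs, with a median of 2.19% of a cell's UMIs where present and a highest value of 8.74% (698 UMIs). Since the rule chose cells partly on Ccl21a UMIs, this share describes the cells chosen and is not a finding.

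The other markers of the rule were spread over the libraries as well. Mmrn1, which encodes a secreted multimerin, held 154, 299, 161 and 442 UMIs in LECs and 2, 8, 0 and 70 in the other ECs. Reln, which encodes the glycoprotein reelin, held 58, 126, 54 and 149 UMIs in LECs and 1, 6, 1 and 17 in the other ECs. Lyve1 held 142, 197, 120 and 374 UMIs in LECs and 53, 42, 4 and 100 in the other ECs. Prox1 had the smallest share of its UMIs in LECs of the 5, with 62, 76, 42 and 124 UMIs in LECs against 46, 40, 17 and 57 in the other ECs. LECs held 56.9%, 63.9%, 61.8% and 64.9% of all Prox1 UMIs of the filtered cells, and 99.5%, 99.6%, 99.8% and 86.0% of all Ccl21a UMIs. The rule chose the cells on these UMIs, so such shares and their order are partly set by it. Of the 114 LECs, 46 had all 5 markers, 32 had 4, 8 had 3, 14 had 2 and 14 had only 1, so 78 had at least 4. Ccl21a and Lyve1 were found together in 83 cells, which is nearly every one of the 84 cells with Lyve1.

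**Figure D1:**
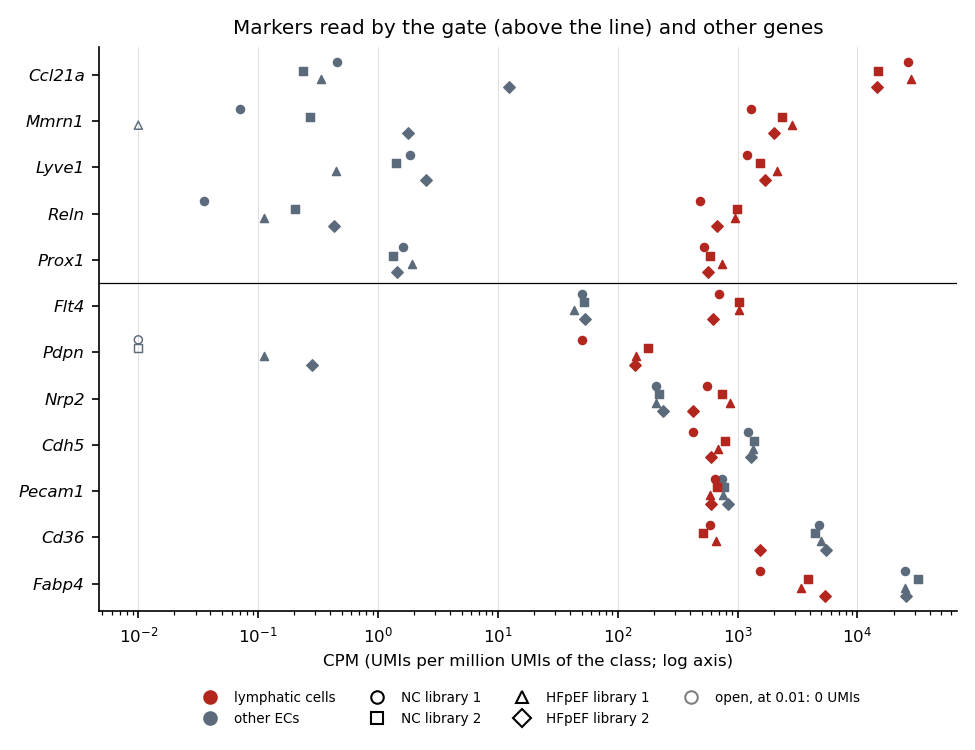
Level of each gene in CPM (log axis) in LECs and in the other ECs of each library, with the 5 genes read by the rule above the line. Of the markers that the rule did not read, Flt4 and Nrp2 lie higher in LECs in all 4 libraries, and Cd36 and Fabp4 lie lower. Pdpn passed the count filter through LECs alone, so its level is a description.

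The 14 LECs with Prox1 as their only marker (3, 1, 1 and 9 cells) differed in level from the other 100. They had 114 CPM of Flt4 against 931, 51.6 CPM of the venous and lymphatic transcription factor Nr2f2 against 524, and 61.9 CPM of the VEGF-C coreceptor Nrp2 against 694. No UMI of Pdpn, Maf, Fgl2 or Tbx1 was found in them, where the other 100 cells held 68, 513, 526 and 35. Fabp4, a fatty acid binding protein of capillary ECs, was at 6463 CPM in these 14 cells and 3332 CPM in the other 100, and 20 of the 21 UMIs of Vwf, the clotting factor of large vessels, were in the 14. Foxc2 and Gata2 went the other way, at 92.9 CPM (9 UMIs in 3 cells) and 134 CPM in the 14 cells against 23.4 and 70.1 CPM in the other 100. The 14 cells were kept, because the rule includes them, and where a list turned without them both values are given. Around the threshold, 18 cells with 2 marker UMIs fell just outside and had 44.7 CPM of Flt4 and 15803 CPM of Fabp4, 5 cells with 3 marker UMIs fell just inside with 477 and 7423 CPM, and 90 cells had 10 or more marker UMIs with 970 and 3035 CPM.

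LECs had a median of 7303.5, 6627, 4074 and 2073 UMIs per cell against 3952, 4307, 1937 and 2038 in the other ECs. In sum they held 119186, 128404, 56318 and 220624 UMIs, so 1 UMI corresponds to 8.39, 7.79, 17.8 and 4.53 CPM, and a gene at 0 could still be at 25.2, 23.4, 53.3 and 13.6 CPM, the level of 3 UMIs. Mitochondrial UMIs made up a median of 2.45%, 4.00%, 3.65% and 3.25% in LECs against 6.65%, 6.02%, 8.05% and 5.67% in the other ECs. Of the 114 LECs, 30 lay above the 95th percentile of UMIs of their own library, and doublets were not removed. Depth and mitochondrial share thus moved with the LEC label, and their part in the results below was not tested beyond the values without the deepest cells and at equal depth in the closing section. Between pairs of libraries 10 to 42 cell barcodes were shared (168 in all), and none of them belonged to a LEC.

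Among all ECs, LECs made up 0.249% of NC library 1 (0.143 to 0.405%, the 95% Clopper-Pearson interval) and 0.296% of NC library 2 (0.175 to 0.467%). In HFpEF library 1 they made up 0.372% (0.209 to 0.613%) and in HFpEF library 2 0.441% (0.340 to 0.561%). The HFpEF libraries lay above the NC libraries, but the intervals, which cover counting error only, overlap for every pair of libraries. When LECs were also held to 2 UMIs of Cdh5 and Pecam1, as the other ECs were, the shares were 0.218%, 0.279%, 0.273% and 0.299%, and HFpEF library 1 no longer lay above NC library 2. With the rule applied after every cell was thinned to 1000 UMIs the shares were 0.298%, 0.430%, 0.551% and 0.546%. With 2 libraries per diet no test was made, and a share of sorted cells also depends on the sort.

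**Figure D2:**
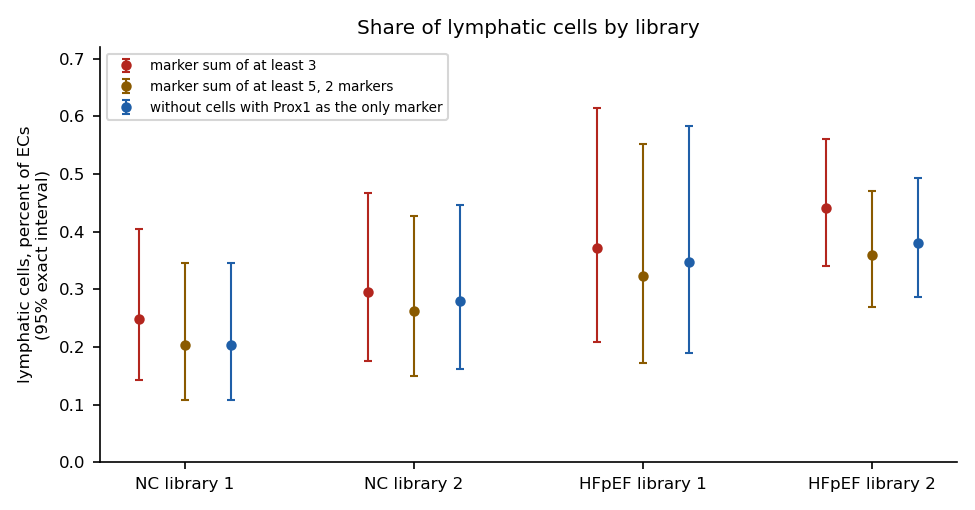
LECs as a percentage of ECs in each library under 3 forms of the rule, with 95% Clopper-Pearson intervals. The values of the rule used here run from 0.249 to 0.441%, and the intervals of the libraries overlap.

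To describe the genes of LECs, UMIs were summed per library over LECs and over the other ECs and compared with edgeR's quasi-likelihood test, with library as a term. A sum does not tell more RNA per cell from more cells with the RNA. Of 10775 genes tested, 807 were higher in LECs (7.49%) and 1257 were lower (11.7%) at a Benjamini-Hochberg adjusted p below 0.05. The median log2 fold change of all genes was -0.16, and changes are read against it. This split depends on the scaling: without TMM scaling 1254 genes were higher and 722 lower, with a median of 0.15. Of the 807 higher genes, 671 had LEC values above those of the other ECs with no overlap of the libraries, where 1384 of all tested genes had such values. The count filter asked for 2.19 CPM in 4 sums. Of the genes tested, 6266 reached it in both classes (599 higher, 841 lower, median -0.07), 139 through LECs alone (128 higher, 0 lower) and 4086 through the other ECs alone (54 higher, 416 lower). A gene that passed through 1 class alone had to be high there to be tested. In the text such genes are therefore given mostly by their levels and UMIs. Their fitted folds and calls still enter the full-list counts and medians, the ranking of the largest changes and the plots of log2 fold change. Some of their fitted values are also given in the closing section. For such a gene no fitted fold or test is taken as support. For each main list the counts among genes that passed in both classes are given too.

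Of the markers that the rule did not read, Flt4 and Nrp2 were called higher in LECs. Flt4, which encodes VEGFR-3 (ENSMUSG00000020357, chr11:49609263-49652739), was at 696, 1020, 1030 and 621 CPM in LECs and 50.1, 52.4, 43.5 and 53.6 CPM in the other ECs, a log2 fold change of 3.70 ± 0.16 (SE, adjusted p = 8.67e-108), or 13.0-fold. Pdpn, which encodes podoplanin (ENSMUSG00000028583, chr4:143267431-143299564), was at 50.3, 179, 142 and 141 CPM in LECs and at 0, 0, 0.112 and 0.279 CPM in the other ECs, from 68 and 12 UMIs. Pdpn passed the count filter through LECs alone, so its level is a description. The LEC values of Flt4 lay above those of the other ECs in all 4 libraries, with no overlap. At an equal depth of 1000 UMIs per cell, 53.8% of 104 LECs had a Flt4 UMI against 4.97% of 28584 other ECs and none of 36 B cells, a cell type that should lack it. Before thinning, the shares were 77.2%, 15.1% and 0. Pdpn was found in 12.5% of LECs, 0.007% of other ECs and no B cell at equal depth. Before thinning, Pdpn was found in 35.1% of LECs.

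Of 27 tested genes of the lymphatic identity list, 21 were higher, 2 were lower, and the median log2 fold change was 2.87 against -0.16 over all genes. This list, like the others, was chosen with earlier results of these data known, so its counts describe the members chosen. Pdpn and Tbx1 passed the filter through LECs alone, and of the other 25, which passed in both classes, 19 were higher and 2 lower, with a median of 2.81. Among the transcription factors, Maf was at 923, 1371, 1030 and 766 CPM against 5.5, 3.93, 3.15 and 4.84 CPM (log2 fold change 7.50 ± 0.19). Nr2f2, which acts with PROX1, was at 344, 530, 497 and 417 CPM against 45.3, 51.4, 50.5 and 46.3 (2.87 ± 0.18, adjusted p = 1.41e-55). Both factors were higher in every library without overlap of the groups. Tbx1 was at 33.6, 93.5, 53.3 and 72.5 CPM against 0, 0, 0.112 and 0.0507, from 35 and 3 UMIs, a description since it passed through LECs alone. The 2 that fell were Sox18, a factor upstream of Prox1 in development, at 310, 312, 178 and 236 CPM against 468, 434, 316 and 390 (-0.95 ± 0.18, adjusted p = 1.36e-06), and Gata2 at 58.7, 54.5, 107 and 104 CPM against 180, 146, 139 and 151 (-1.25 ± 0.24, adjusted p = 2.56e-06). At 1000 UMIs per cell, Sox18 was found in 26 of 104 LECs, 30.9% of other ECs and no B cell, and Gata2 in 4.81% of LECs, 14.1% of other ECs and no B cell. Before thinning, the shares were 49.1%, 57.0% and 0 for Sox18 and 22.8%, 34.9% and 0 for Gata2, and 13 of the 43 Gata2 UMIs in LECs came from the 14 cells with Prox1 alone.

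Surface and secreted members of the identity list rose as well. The scavenger receptor Stab1 was at 554, 1059, 906 and 666 CPM against 65.7, 56.0, 46.6 and 58.1 (log2 fold change 3.45 ± 0.17). The glycoprotein Thy1 was at 210, 530, 462 and 308 CPM against 3.68, 4.43, 5.62 and 3.04 (6.17 ± 0.23). Fgl2, which encodes a fibrinogen-like protein, was at 654, 911, 1616 and 1088 CPM in LECs (8.02 ± 0.20), and Nts, the precursor of neurotensin, at 537, 678, 852 and 929 CPM (3.88 ± 0.17). Under each of the 4 ways of leaving out 1 library 20 or 21 of the identity genes were higher and 2 were lower. The valve factor Foxc2 was at 8.39, 7.79, 35.5 and 68.0 CPM against 3.33, 3.02, 4.16 and 3.80 (2.81 ± 0.60, adjusted p = 3.2e-05). Its 19 UMIs came from 10 LECs, 7 of them from 1 cell of HFpEF library 2, and it was no longer called without that library.

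The 20 genes with the largest rise by the naming rule were Apba2, Tbx1, Pld5, Htr2b, Pdpn, Sh3gl3, Ston2, Fndc1, Flrt3, Gap43, Dtx1, Mrc1, Abi3bp, Ptn, Fgl2, Kbtbd11, Maf, Tc2n, Lcn2 and Lrrn4cl. Of the 20, 18 passed the count filter through LECs alone and are listed for their levels, while Fgl2 and Maf passed in both classes. Apba2, a neuronal adaptor protein (ENSMUSG00000030519, chr7:64501706-64753878), was at 33.6, 156, 71.0 and 58.9 CPM in LECs, from 41 UMIs, and had 2 UMIs in all other ECs. Several of the 20 are best known from other tissues. Gap43, a protein of growing axons, was at 143, 405, 160 and 90.7 CPM, from 98 UMIs against 53 in the other ECs. Htr2b, a serotonin receptor, was at 58.7, 93.5, 107 and 40.8 CPM, from 34 UMIs against 4. Abi3bp, an extracellular matrix protein, was at 394, 498, 337 and 372 CPM against 0.700, 0.873, 1.80 and 1.29, from 212 and 113 UMIs. The growth factor pleiotrophin, Ptn, was at 294, 903, 107 and 372 CPM, from 239 UMIs against 137, and the siderophore-binding lipocalin Lcn2 at 411, 389, 1065 and 526 CPM, from 275 UMIs against 326. The naming rule asked for a call and for the same direction in all 4 libraries, so neither is a finding here.

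**Figure D3:**
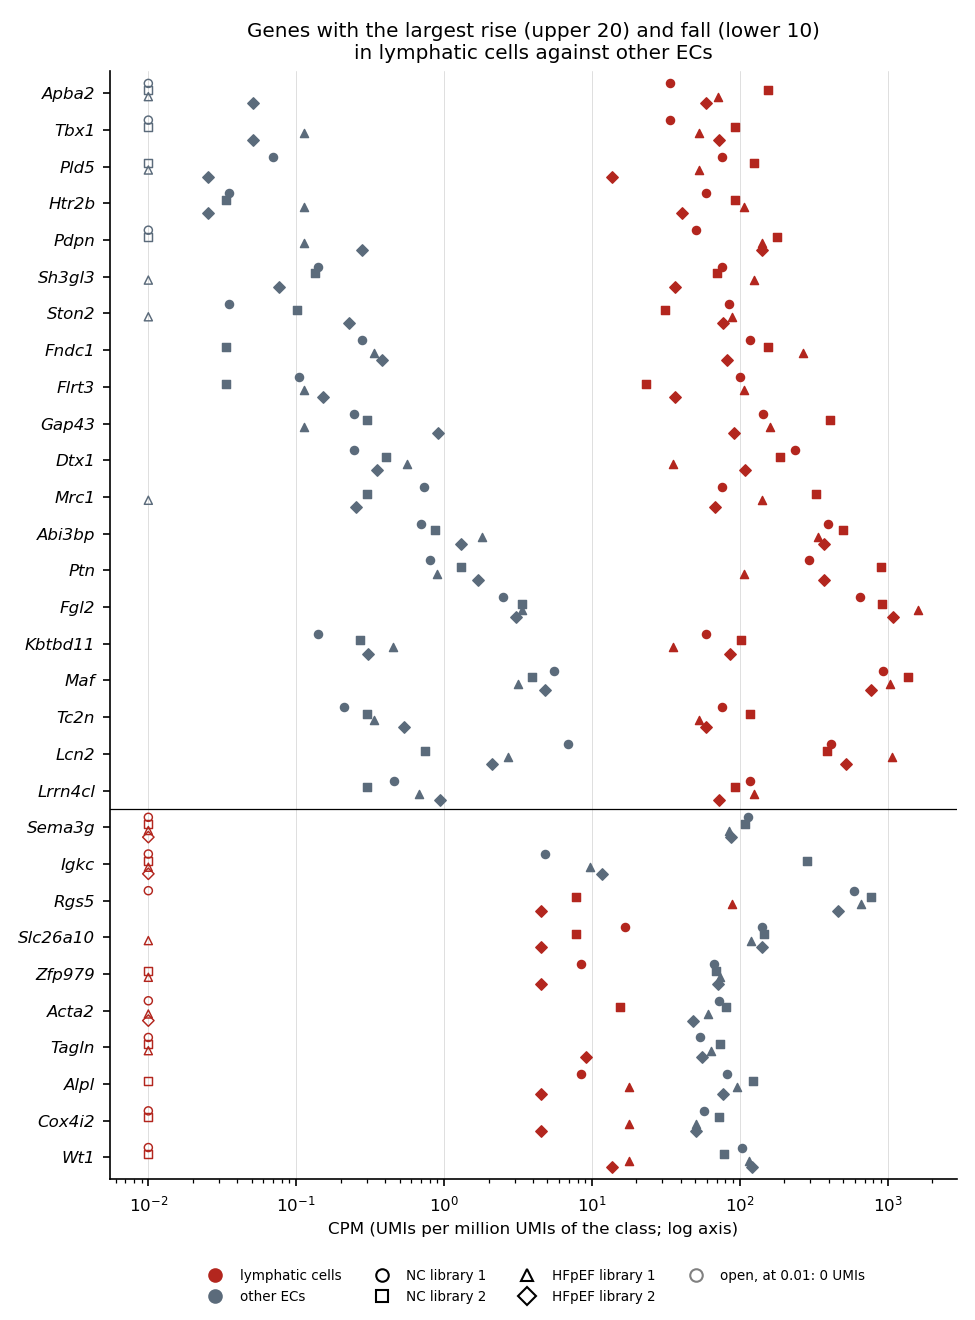
Level in CPM (log axis) of the 20 genes with the largest rise and the 10 with the largest fall, in LECs and other ECs of each library. The naming rule required the same direction in all 4 libraries, so the plot shows levels and not support, and values at 0 are drawn open at 0.01 CPM.

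The 10 with the largest fall were Sema3g, Igkc, Rgs5, Slc26a10, Zfp979, Acta2, Tagln, Alpl, Cox4i2 and Wt1. Sema3g, a semaphorin of arterial ECs, had no UMI in LECs and was at 113, 109, 84.1 and 86.9 CPM in the other ECs, so it was at least 17.5-fold lower, against a floor of 3 UMIs over all LECs. Rgs5 and the contractile genes Acta2 and Tagln mark the mural cells (pericytes and smooth muscle) around blood vessels. Rgs5 was at 0, 7.79, 88.8 and 4.53 CPM in LECs against 593, 769, 659 and 461, from 7 and 63885 UMIs. All 10 passed the filter through the other ECs alone. Of the 8 tested genes of the mural list 6 were lower and none higher, with a summed level of 61.0 CPM in LECs and 832 CPM in the other ECs. Of these 8, 7 passed through the other ECs alone, the 6 lower ones among them, so these values are a description. When cells were thinned to 1000 UMIs 1 of the 8 mural genes was still called lower, and the calls of Acta2 and Tagln, each with 2 UMIs in LECs, were among those lost. Igkc, an immunoglobulin gene of B cells, had no UMI in LECs and 4.8, 286, 9.67 and 11.8 CPM in the other ECs, so its fall rested on NC library 2, and it was not called without that library.

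VEGF-C signalling genes split by receptor. Of 22 tested, 7 were higher and 8 lower, with a median of -0.12, and 7 and 7 of the 21 that passed in both classes. Beside Flt4, the higher genes included Nrp2, the coreceptor for VEGF-C, at 554, 740, 870 and 422 CPM against 208, 220, 210 and 237 (log2 fold change 1.16 ± 0.16, adjusted p = 6.23e-12), and Itga9, an integrin of lymphatic valves, at 227, 358, 249 and 308 CPM against 20.2, 17.1, 14.5 and 19.7 (3.68 ± 0.21, adjusted p = 2.63e-64). The adrenomedullin receptor Calcrl was at 336, 397, 320 and 385 CPM against 105, 116, 131 and 148 (1.22), and its decoy receptor Ackr3 at 772, 413, 231 and 480 CPM against 205, 152, 152 and 116 (1.32). The calls of Nrp2, Calcrl and Ackr3 were lost when cells were thinned to 1000 UMIs. The blood vessel receptors for VEGF-A were on the other side. Kdr (VEGFR-2) was at 453, 833, 604 and 784 CPM against 1122, 1321, 1145 and 1509 (-1.27 ± 0.15, adjusted p = 5.36e-15). Flt1 (VEGFR-1) was at 294, 195, 195 and 494 CPM against 1503, 1484, 1316 and 1493 (-2.59 ± 0.17, adjusted p = 6.72e-50). Nrp1, the coreceptor for VEGF-A and class 3 semaphorins, was at 25.2, 77.9, 35.5 and 231 CPM against 697, 697, 745 and 914 (-3.21 ± 0.20, adjusted p = 3.32e-53). The ligand Vegfc itself was at 33.6, 0, 17.8 and 22.7 CPM in LECs and 82.7, 99.9, 90.3 and 71.1 CPM in the other ECs, through which alone it passed the filter. LECs thus carried more of the VEGFR-3 and Nrp2 transcripts, and the other ECs more of the Kdr, Flt1 and Nrp1 transcripts, in all 4 libraries.

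Axon guidance genes were 6 higher and 3 lower of 17 tested, with a median of 0.29. Among the 12 that passed in both classes 4 were higher and 3 lower, with a median of -0.02, so no direction is read from the list. Sema3a, a repellent that acts on Nrp1 and is known from lymphatic valves, was at 159, 187, 160 and 127 CPM against 0.77, 0.873, 1.69 and 1.32. Sema3d was at 201, 327, 373 and 276 CPM in LECs, and like Sema3a it passed through LECs alone. Ntn1 (netrin 1) was at 487, 413, 284 and 376 CPM against 18.3, 12.3, 14.2 and 14.2 (log2 fold change 4.44). For Ntn1, which passed in both classes, the values of LECs and the other ECs did not overlap. Valve and collector genes were 7 higher and 10 lower of 23, with a median of -0.50, but 7 and 7 without TMM scaling and 7 and 6 with DESeq2, and 4 and 7 of the 13 that passed in both classes, so no direction is read from that list. Foxc2 and Itga9 were among the higher genes, while the endothelial nitric oxide synthase Nos3 was lower, at 75.5, 70.1, 71.0 and 72.5 CPM against 134, 126, 114 and 112 (-1.05 ± 0.25, adjusted p = 0.000288).

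Genes of leukocyte traffic, apart from those the rule read, were 6 higher and 8 lower of 21, with a median of -0.96, and 2 and 4 of the 9 that passed in both classes. Ackr2, a scavenger of inflammatory chemokines on lymphatic endothelium, was at 193, 132, 88.8 and 90.7 CPM against 1.02, 1.14, 2.14 and 2.41. The T cell survival cytokine Il7 was at 83.9, 62.3, 124 and 58.9 CPM. Both passed the filter through LECs alone, so their levels are a description. Ccl2, a monocyte chemokine, was at 25.2, 15.6, 817 and 127 CPM against 9.56, 14.6, 15.3 and 20.7 (log2 fold change 2.90 ± 0.30), but 32 of its 79 UMIs sat in 1 cell of HFpEF library 1, and the call was lost without the deepest cells and with DESeq2. Cxcl12, a chemokine of blood ECs, was at 117, 156, 391 and 594 CPM in LECs against 1596, 1501, 1527 and 2116 (-2.87 ± 0.17, adjusted p = 1.64e-59), and S1pr1, the receptor for sphingosine 1-phosphate, was at 218, 249, 320 and 304 CPM against 575, 493, 440 and 447 (-1.17). Ccl19, which shares the receptor CCR7 with CCL21, had no UMI in LECs and 60 UMIs in the other ECs, and no fold is given for it.

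Junction genes were mostly lower or not called. The other ECs were chosen on Cdh5 and Pecam1, so these 2 are a description: Cdh5 was at 428, 779, 692 and 603 CPM in LECs and 1223, 1365, 1338 and 1304 CPM in the other ECs, and Pecam1 at 646, 670, 586 and 603 CPM against 746, 765, 753 and 831. Of the 21 other junction genes tested, 3 were higher and 11 lower, without TMM scaling 4 were higher and 8 lower, and of the 17 that passed in both classes 2 were higher and 9 lower. Claudin 5 (Cldn5), the main endothelial claudin, was at 881, 1301, 1172 and 852 CPM in LECs and 611, 832, 911 and 812 CPM in the other ECs (log2 fold change 0.07 ± 0.15, adjusted p = 0.819), and without TMM scaling it was called higher by 0.40. Jam2 was at 8.39, 38.9, 53.3 and 113 CPM against 484, 504, 477 and 407 (-3.23), and the adhesion molecule Esam at 126, 77.9, 88.8 and 177 CPM against 799, 743, 634 and 715 (-2.86). Plvap, which forms the diaphragms of caveolae and fenestrae, went the other way, at 92.3, 335, 178 and 95.2 CPM against 21.4, 18.4, 10.8 and 12.6 (3.04).

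Matrix and secreted genes were 14 higher and 8 lower of 28, with a median of 0.34, and 11 and 11, with a median of -0.0008, without the 14 cells that had Prox1 alone. Of the 25 that passed in both classes 14 were higher and 6 lower. Igfbp5, which binds insulin-like growth factors (chr1:72857932-72874884), was at 4027, 4852, 4581 and 5090 CPM in LECs against 61.8, 53.2, 59.6 and 74.9, a log2 fold change of 5.89 ± 0.17 (adjusted p = 3.88e-258). Its relative Igfbp7 was lower, at 126, 280, 462 and 485 CPM against 1374, 1451, 1261 and 1332 (-2.39). The metalloproteinase inhibitor Timp2 was at 1493, 1238, 781 and 798 CPM against 30.8, 34.0, 25.6 and 24.2 (4.89), and Timp3 at 4699, 3341, 3640 and 3703 CPM against 1664, 1498, 1565 and 1379 (1.00 ± 0.14, adjusted p = 4.53e-11). Igfbp5 and Igfbp7 thus lay on opposite sides, while Timp2 and Timp3 were both higher. The call of Timp3 was lost when cells were thinned to 1000 UMIs. The fibronectin gene Fn1 was higher by 1.78 ± 0.19 with all LECs, and its value was -0.080 without the 14 cells.

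**Figure D4:**
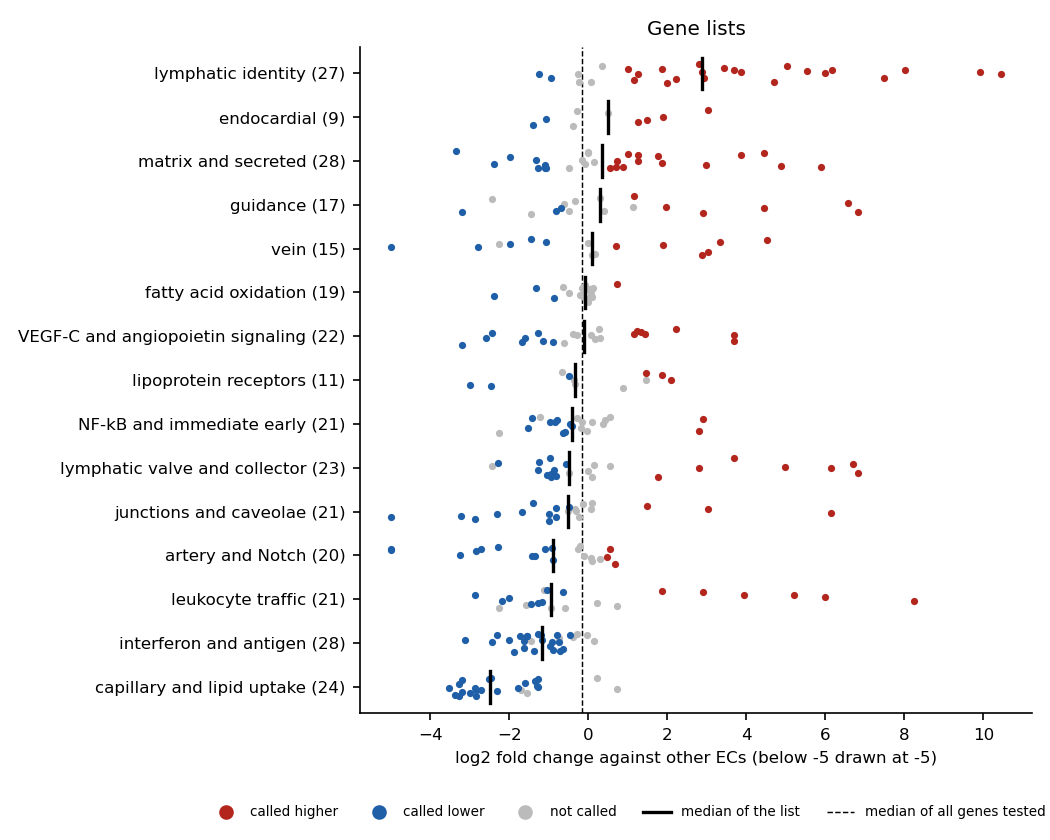
Log2 fold change of LECs against the other ECs for each tested gene of the lists (points, the number tested in brackets) and the median of each list (bar), with values below -5 drawn at -5. The lymphatic identity list has its median at 2.87 and the capillary lipid uptake list at -2.49, while the median of all genes is -0.16.

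The clearest loss was of capillary genes for lipid uptake: of 24 tested, none was higher and 20 were lower, with a median of -2.49, and every alternative gave 19 or 20 lower and none higher. Of the 18 that passed in both classes 16 were lower. Fabp4 (chr3:10204088-10208576) was at 1535, 3839, 3374 and 5371 CPM in LECs against 25148, 31995, 24743 and 25547, a log2 fold change of -3.36 ± 0.16 (adjusted p = 1.77e-92), or 10.3-fold lower. The fatty acid translocase Cd36 was at 587, 514, 657 and 1527 CPM against 4733, 4442, 5002 and 5442 (-2.99 ± 0.16, adjusted p = 1.13e-73). Lipoprotein lipase (Lpl) was at 75.5, 187, 195 and 208 CPM against 1474, 1172, 1237 and 1124 (-3.20), and Gpihbp1, which anchors it to the capillary wall, at 193, 849, 391 and 739 CPM against 2419, 2385, 1681 and 1921 (-2.32). Their shared regulator Pparg was at 8.39, 38.9, 17.8 and 36.3 CPM against 152, 126, 120 and 122 (-2.50). The uptake machinery was thus lower at each of these steps, without overlap of the groups. At 1000 UMIs per cell, 58.7% of LECs, 99.6% of other ECs and 27.8% of B cells had a Fabp4 UMI, and 43.3%, 96.2% and 5.56% had a Cd36 UMI. Before thinning, the shares were 72.8%, 99.8% and 42.9% for Fabp4 and 59.6%, 98.6% and 18.4% for Cd36. B cells should lack both genes, 626 of the 2051 Fabp4 UMIs in LECs sat in the 14 cells with Prox1 alone, and the part of free RNA and doublets in the LEC shares was not tested.

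Of 19 tested genes that burn fatty acids, 1 was higher (Etfa) and 3 were lower (Pdk4, Acads and Acaa2), with a median of -0.08. Over all genes 7.49% were higher and 11.7% lower, so nothing is read from these counts. Among the 14 genes that passed in both classes 1 was higher and 1 lower. With 1 library left out 0 or 1 of the list were higher and 0 to 2 lower. Without the 14 cells that had Prox1 alone none was higher and 1 was lower, and Etfa, Pdk4 and Acaa2 lost their calls. The rate-limiting carnitine palmitoyltransferase Cpt1a was at 25.2, 54.5, 35.5 and 68.0 CPM against 38.6, 45.3, 39.6 and 45.6 (log2 fold change -0.09 ± 0.32, adjusted p = 0.908). Of 11 tested reelin and lipoprotein receptor genes, 3 were higher and 3 lower, and 3 and 4 without those cells. Scarb1, the gene floxed in these mice, was at 16.8, 23.4, 0 and 13.6 CPM in LECs (8 UMIs) against 107, 44.2, 108 and 50.7, and it passed the filter through the other ECs alone. In the other ECs library 1 of each diet lay above library 2, and genotype cannot be told apart from library. The cholesterol exporter Abca1 was higher, at 126, 148, 178 and 90.7 CPM against 31.3, 25.2, 35.1 and 24.5 (1.86 ± 0.26, adjusted p = 2.39e-11), and so was the oxysterol receptor LXR alpha, Nr1h3, at 25.2, 23.4, 53.3 and 36.3 CPM against 6.86, 7.05, 7.98 and 4.41 (2.10 ± 0.54, adjusted p = 0.000859), which was not called without HFpEF library 2. The scavenger receptor Cd36 and the exporter Abca1 thus lay on opposite sides.

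Interferon and antigen presentation genes were lower in LECs: of 28 tested, 22 were lower and none higher, with a median of -1.18, and without TMM scaling 18 were lower and 1 higher. Of the 21 that passed in both classes 17 were lower. The GPI-anchored protein Ly6a was at 361, 148, 249 and 512 CPM against 2484, 1982, 1847 and 2355 (log2 fold change -3.11 ± 0.17). The interferon-induced GTPase Iigp1 was at 453, 226, 249 and 485 CPM against 827, 1078, 1343 and 1151 (-1.89), and the ubiquitin-like Isg15 at 109, 179, 231 and 267 CPM against 393, 591, 508 and 470 (-1.63). These 3 had no overlap between LECs and other ECs. The class I light chain B2m was closer, at 1728, 1277, 2521 and 2892 CPM against 2139, 2285, 3052 and 3458 (-0.74 ± 0.14, adjusted p = 3.75e-06), lower in each library although the ranges overlap. Of 21 acute NF-kB genes 2 were higher and 9 lower, with a median of -0.43, but without TMM scaling 4 were higher and 4 lower, so no direction is read from that list.

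Arterial and Notch genes were 3 higher and 11 lower of 20 (median -0.91), and 3 and 7 of the 14 that passed in both classes (median -0.58). Sox17, a factor of arterial ECs, was lower by 2.86 on the log2 scale. Gja5, the arterial connexin 40, had no UMI in LECs and was at least 2.56-fold lower, but it passed the filter through the other ECs alone. Vein genes were 6 higher and 5 lower of 15, with a median of 0.08, and 4 higher and 6 lower, with a median of -0.23, without the 14 cells that had Prox1 alone. Endocardial genes were 4 higher and 2 lower of 9, with a median of 0.50, and 3 and 3, with a median of -0.39, without those cells. With DESeq2 both medians were -0.058, so no direction is read from these 2 lists.

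Depth changed the counts of several lists. At 1000 UMIs per cell the lymphatic identity list had 15 higher and 2 lower of 24 and the capillary list 19 lower of 22. The interferon and antigen list had 14 lower of 28 there, and 15 without the deepest 5% of cells, with none higher. The artery and Notch list had 0 higher and 6 lower at 1000 UMIs, 0 and 9 without the deepest cells, and 1 or 2 higher when 1 library was left out, so its 3 rises are not read. The VEGF-C list had 3 higher and 6 lower, the leukocyte list 3 and 7, the junction list 1 and 9, the valve list 4 and 6 and the guidance list 4 and 2 at 1000 UMIs. The matrix list had 7 and 6 there. The median of all genes was -0.61 at 1000 UMIs, so the medians of the matrix list (-0.33) and the guidance list (-0.43) lay above it. The direction of the identity, capillary and interferon lists was the same at each depth.

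Markers of other cell types were counted in the same sums. Macrophage markers summed to 151, 350, 178 and 181 CPM in LECs and 45.1, 60.6, 37.6 and 38.6 CPM in the other ECs, and of 5 tested 2 were higher (Mrc1 and Fcer1g) and 1 lower (Lyz2). Mrc1, the mannose receptor, which LECs are known to express too, was the most abundant with 74 UMIs in 34 LECs, at 75.5, 327, 142 and 68.0 CPM against 0.735, 0.302, 0 and 0.253, and it passed the filter through LECs alone. Fcgr1, Cd163, Adgre1, Ptprc, Tyrobp and C1qc, which define macrophages and leukocytes, had no UMI in LECs. The rule left out cells with a C1qa, C1qb or Csf1r UMI, so these zeros are partly set by it. Only 1 cell that met the marker part of the rule failed it on those genes. Fibroblast markers summed to 1124, 241, 408 and 693 CPM in LECs against 74.7, 86.2, 151 and 78.8, with 5 of 6 higher, and 3 without the 14 cells that had Prox1 alone. Dcn (decorin) was the most abundant, at 990, 218, 266 and 195 CPM from 204 UMIs in 20 cells, of which 82 UMIs came from 1 cell of NC library 1, while all 30 UMIs of Lum sat in 2 cells and 21 of the 22 UMIs of Col3a1 in 1. The defining fibroblast factor Tcf21 was at 0. These fibroblast transcripts moved with the matrix list, and their part in it was not tested.

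The remaining lists held few UMIs in LECs. Cardiomyocyte markers summed to 28.6 CPM in LECs and 112 CPM in the other ECs, with 4 of 6 lower (all 4 tested through the other ECs alone), and mesothelial markers to 7.63 and 106 CPM, with Wt1, the 1 tested gene, lower. Schwann cell markers were higher in sum, at 0, 15.6, 0 and 199 CPM in LECs against 20.3, 20.7, 18.0 and 20.1 CPM, so that the excess came from HFpEF library 2. The 1 gene of this list that passed the count filter was not called, and without the filter 4 of 5 were called higher. Platelet markers (5.72 and 12.8 CPM, 2 tested) and lymphocyte markers (1.91 and 9.59 CPM, 1 tested) gave no call. Of 5 proliferation genes tested none was higher and 2 were lower (1 and 1 without the 14 cells that had Prox1 alone), with sums of 70.5 and 132 CPM, and Mki67, Top2a and Birc5 had no UMI in LECs.

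Since most other ECs are capillary cells, LECs were also compared with ECs that carried vein markers (at least 1 Selp UMI and 2 Vwf UMIs, no Npr3; 48, 39, 20 and 107 cells) and with ECs that carried at least 2 UMIs of Npr3, the natriuretic peptide clearance receptor of the endocardium (56, 69, 17 and 72 cells). The LEC libraries are the same in all 3 comparisons, so the values are given side by side. Against vein-marker ECs, 304 of 3086 genes were higher (9.85%) and 433 lower (14.0%), and without TMM scaling 425 and 349. Against endocardial-marker ECs, 322 of 3134 were higher (10.3%) and 394 lower (12.6%), and without TMM scaling 413 and 305. The medians of all genes were 0.02 and -0.002, and 0.18 and 0.14 without TMM scaling. The lists named below kept their main direction under that scaling. These sums are small and the count filter asked for 57.3 CPM in 4 of them, so only 1486 and 1492 genes passed in both classes, and counts among those are given beside the others.

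The lymphatic identity list was 17 higher and 1 lower (Foxc1) of 22 against vein-marker ECs, with a median of 1.53, and 17 higher and 2 lower (Foxc1 and Gata2) of 22 against endocardial-marker ECs, with a median of 1.59. Among genes that passed in both classes, 10 of 12 and 8 of 11 were higher and none was lower. Flt4 was at 40.6, 53.4, 30.9 and 79.4 CPM in vein-marker ECs and 40.1, 40.3, 59.5 and 50.1 CPM in endocardial-marker ECs, close to its level in the other ECs at large. Maf had 2 UMIs in vein-marker ECs and 5 in endocardial-marker ECs, against 513 in LECs. Thy1 had no UMI in vein-marker ECs and 6 in endocardial-marker ECs, against 187 in LECs. These 3 genes passed the filter through LECs alone in both comparisons, so their levels are a description. Nr2f2 was closer to the vein-marker ECs, at 200, 227, 340 and 263 CPM there (0.71, adjusted p = 0.0141), than its 2.87 against all other ECs, a difference of reference that was not tested.

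Some genes that stood out against all other ECs were not called against 1 of the smaller classes. Lrg1 was at 394, 280, 639 and 517 CPM in LECs and 971, 338, 294 and 744 CPM in vein-marker ECs (log2 fold change -0.50 ± 0.27, adjusted p = 0.212). Plvap was at 338, 240, 139 and 206 CPM in vein-marker ECs (-0.70 ± 0.32, adjusted p = 0.147) and 925, 711, 614 and 554 CPM in endocardial-marker ECs (-2.22). Kdr, lower than in all other ECs, had values of 0.33 ± 0.17 (adjusted p = 0.192, and 0.0475 without TMM scaling) against vein-marker and -0.28 ± 0.19 (adjusted p = 0.355) against endocardial-marker ECs. Cldn5 did the reverse: it was not called against all other ECs and was higher against vein-marker ECs, at 142, 312, 61.8 and 179 CPM there (2.39 ± 0.24, adjusted p = 5.71e-06), and against endocardial-marker ECs, at 158, 275, 773 and 356 CPM (1.58 ± 0.26, adjusted p = 0.000635).

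The vein-marker class was chosen on Selp and Vwf, which are left out of the counts here. Of 12 other vein genes 1 was higher (Nr2f2) and 7 lower, with a median of -2.14, but 6 of the 7 passed through the vein-marker ECs alone, among them the adhesion molecule Vcam1, at 1745, 1495, 1406 and 1025 CPM in vein-marker ECs and 50.3, 0, 0 and 49.9 CPM in LECs. Of 18 acute NF-kB genes none was higher and 13 lower (median -1.30), and of 24 interferon and antigen genes none was higher and 16 lower (median -1.12). Among those that passed in both classes, 8 of 12 and 9 of 12 were lower. Of 9 endocardial genes tested against endocardial-marker ECs 1 was higher (Nfatc1) and 7 lower, with a median of -2.63. However, Nfatc1 passed through LECs alone, and 5 of the 7, Bmp6 among them, through the endocardial-marker ECs alone. Capillary lipid uptake genes were lower against both classes as well, 10 of 15 against vein-marker ECs, where Btnl9 was higher, and 14 of 18 against endocardial-marker ECs, with Fabp4 at -2.25 ± 0.21 and -2.26 ± 0.22. Of those that passed in both classes, 7 of 10 and 8 of 11 were lower and none was higher.

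**Figure D5:**
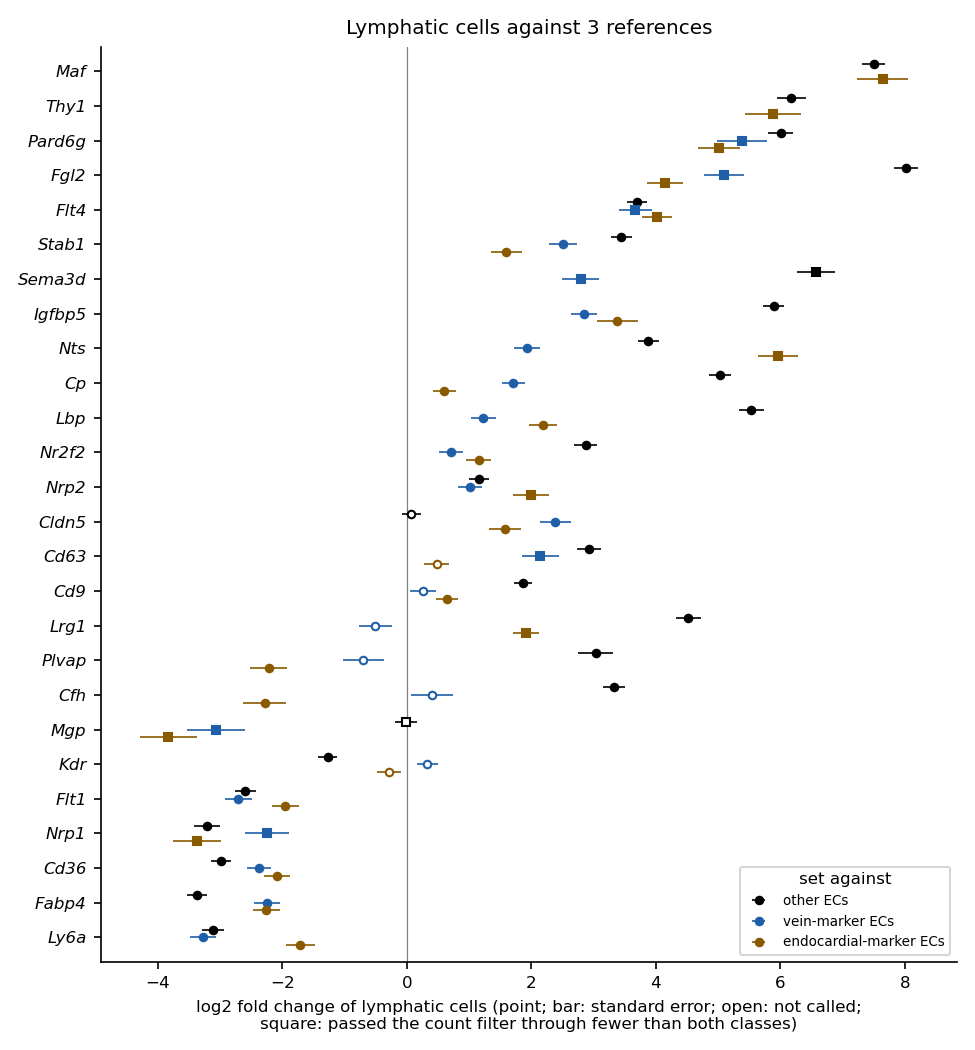
Log2 fold change of LECs against all other ECs, vein-marker ECs and endocardial-marker ECs for selected genes (point, with the standard error as a bar, open where not called, a square where the gene passed the count filter through fewer than both classes, left out where the reference has 3 UMIs or fewer). Fabp4 runs from -3.36 to -2.25 over the references, while Plvap runs from 3.04 to -2.22.

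Gene diversity was counted at equal depth. At 1000 UMIs per cell, LECs had a median of 676, 679, 672.5 and 672 genes per cell, and the other ECs 626, 627, 616 and 634. The LEC median was higher in each library, by 50, 52, 56.5 and 38 genes, with a mean of 49.1 ± 7.90 (SD, n = 4 libraries, two-sided exact sign-flip permutation test, 2 of 16 sign patterns as extreme, the fewest that 4 libraries can give, so that 0.05 cannot be reached).

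Diet was looked at only as values per library, since 2 libraries per diet with 15 to 65 LECs each allow no useful test. The 2 libraries of a diet may also differ in Scarb1 genotype, so an absence of overlap between diets is a description only. Among genes of the label the order of the diets differed from gene to gene: Flt4 in LECs had 696 and 1020 CPM with NC diet against 1030 and 621 CPM with HFpEF diet, and Maf had 923 and 1371 against 1030 and 766, with overlap, whereas Fgl2 had 654 and 911 against 1616 and 1088, Nts 537 and 678 against 852 and 929, and Sox18 310 and 312 against 178 and 236, without overlap. Foxc2 (8.39 and 7.79 against 35.5 and 68.0 CPM) and Gata2 (58.7 and 54.5 against 107 and 104 CPM) did not overlap either, on few UMIs. In the other ECs the same order without overlap was seen for Sox18 (468 and 434 against 316 and 390 CPM), Nts (32.0 and 29.6 against 41.8 and 61.1 CPM) and Foxc2 (3.33 and 3.02 against 4.16 and 3.80 CPM), while Fgl2 and Gata2 overlapped there. Cxcl12 in LECs had 117 and 156 CPM with NC diet against 391 and 594 CPM with HFpEF diet, without overlap, while in the other ECs it was at 1596 and 1501 against 1527 and 2116. Cd36 and Jam2, which like Cxcl12 were higher in the other ECs, had the same order in LECs without overlap, while Fabp4 and Nrp1 overlapped. The part of free RNA and doublets in these LEC values was not tested. B2m in LECs had 1728 and 1277 CPM with NC diet against 2521 and 2892 CPM with HFpEF diet, and the same order was seen in the other ECs. These pairs were picked after their values were seen.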

How the data were processed

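The deposited values are UMI counts per gene and cell, which the authors made with fastp and Cell Ranger 5.0.1 on mm10 with Ensembl genes, with downsampling between samples, and which are not scaled. Of 41843 deposited cells, 39829 had over 200 genes, under 20% mitochondrial and under 1% hemoglobin UMIs. Rows with the same symbol (43 symbols) were summed. Genes were tested on UMI counts summed per library and class with edgeR 4.0.16 in R 4.3.3 (quasi-likelihood test, TMM, filterByExpr, class and library as terms, Benjamini-Hochberg), with DESeq2 1.42.0 as an alternative. A call is an adjusted p below 0.05. The p-values and SEs rest on a variance that the fit pools largely over genes. They are therefore not a measure of each gene's own spread between the 4 libraries, and the number of mice is not given. Genes of the rule were fitted with the others but left out of every count. The scripts were tested on simulated data. The other steps were run in Python 3.11.15 (pandas 2.3.3, numpy 2.4.6, matplotlib 3.10.9, scipy 1.17.1).

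Genes named are those of the gene lists and the 20 with the largest rise and 10 with the largest fall that were called, seen in all 4 libraries of the higher class, of 1 direction in all 4, and at 50 CPM or more there, without unnamed gene models. Values of some genes of the lists are not reported here. The rule for LECs, the members and the lists were chosen with earlier results of these data known. Single cells were thinned at random without replacement. Alternatives changed scaling, test, count filter, depth, the lymphatic rule, the reference and the library term, and left out each library in turn.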

Additional observations from a re-analysis of the deposited data

Results flagged for a closer look

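Of 296 tested genes of the lists that were looked at, 5 had a log2 ratio of LECs to other ECs that was above 0 in both libraries of a diet and below 0 in both of the other, and the difference between the diets was not tested. The difference, HFpEF minus NC, was -1.70 for the connexin Gja4 (LECs 117 and 62.3 CPM in NC, 0 and 27.2 CPM in HFpEF) and -0.75 for Vegfa (67.1 and 62.3 against 35.5 and 63.5 CPM). For Foxc1 it was -0.38 and for the catenin Ctnnb1 0.38. For the secreted protein Cytl1 it was at most -3.62, with the 0 UMIs of the HFpEF libraries set to 3, but its 63 UMIs in NC LECs sat in 2 cells, 48 in 1 and 15 in the other.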

How the results depend on the processing

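Over 4625 comparisons of a gene of the lists or a named gene with an alternative, 4269 kept their call or stayed uncalled. Of the others, 297 lost the call, 49 gained it and 10, all of called genes, changed sign. Genes that were not called could change sign within the 4269, as Gja4 did, with values from -0.61 to 0.62. Against the other ECs 2064 genes were called. There were 1271 without the deepest 5% of cells and 914 at 1000 UMIs per cell, and 1574 to 1941 when 1 library was left out. Genes called higher (807) numbered 1254 without TMM scaling, 442 without the deepest cells and 193 at 1000 UMIs. Genes called lower (1257) numbered 722 without TMM scaling, 718 with DESeq2, 817 with at least 20 UMIs, 829 without the deepest cells and 721 at 1000 UMIs. Against vein-marker ECs 475 genes were called with DESeq2 (187 higher, 288 lower), 1137 without a count filter (711 lower), and 486 to 721 with 1 library left out (275 to 428 lower). Against endocardial-marker ECs 476 were called with DESeq2 (255 lower), 1133 without a count filter (672 lower), and 460 to 842 with 1 library left out (239 to 468 lower). The share of LECs in HFpEF library 2 was 0.299% when LECs were held to Cdh5 and Pecam1.

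Among genes called with the main settings, signs changed for Fn1, Ecm1, Ptgs2, Abcg1, Etfa and Apoe, and the cause was not tested. Fn1 was at -0.071 with at least 5 marker UMIs from 2 markers. It was at -0.080 without the cells with Prox1 alone, an alternative added after the data were seen. Under the same 2 alternatives Ecm1 was at -2.45 and -2.47, and it was at -0.41 at 1000 UMIs. Ptgs2, which passed the count filter through the other ECs alone, was at -9.53 and -9.46, fitted values that depend on the prior count. Abcg1 was at -1.14 and Etfa at -0.18 at 1000 UMIs, and Apoe at 0.13 with at least 2 marker UMIs. With 114 LECs, genes under about 3 UMIs per library are at the floor. The LECs and other ECs of a library were paired by the library term. Without this block 1939 genes were called. The diets were not tested against each other, so no block across them was fitted.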
